A study of Mus musculus with 16 samples.

Results

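The clustered protocadherins are cell-surface adhesion proteins of the cadherin superfamily, encoded by tandem genes in 3 neighbouring subclusters named alpha, beta and gamma. All 57 protein-coding genes of the mouse gene table (assembly GRCm38) whose symbols start with *Pcdha*, *Pcdhb* or *Pcdhg* and which lie on chromosome 18 were taken, out of 21900 protein-coding genes. They divide into 14 alpha, 22 beta and 21 gamma genes. The members were chosen by name and position and not by a measured value, though earlier results of these data were known when they were chosen. *Pcdhgb8*, which the table lists as a transcribed pseudogene, is no member.

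In the alpha and gamma subclusters each gene has a promoter and a large variable exon of its own, which is spliced to constant exons shared by the whole subcluster. The beta genes have no constant exons. Neurons use small combinations of these promoters, which gives single cells distinct surface identities. Most variable promoters carry a conserved element bound by the architectural protein CTCF, and most alpha variable exons hold a further CTCF site inside the exon. The C-type genes *Pcdhac1*, *Pcdhac2*, *Pcdhgc3*, *Pcdhgc4* and *Pcdhgc5*, at the 3′ ends of the alpha and gamma arrays, are known to be used more uniformly than the others.

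The assay was ATAC-seq, which marks open chromatin by the places where a transposase can cut, and the cells were gonocytes, germ cells of the testis before and shortly after birth. All animals carried the Mvh-Venus transgene, a fluorescent reporter driven by a germ-cell gene. The groups are *Morc1* (+/-) and *Morc1* (-/-) mice, each at 2 embryonic stages (E13.5 and E16.5, in days of gestation) and 2 stages after birth (P0 and P3, in days), with 2 samples in each of 8 groups. *Morc1* encodes a protein that acts in transposon silencing in male germ cells, and the heterozygous mice served as the comparison, so no wild-type group was analysed here. The labels do not name the *Morc1* allele.

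The authors deposited 1 list of peak positions per group. The lists of the knockout and heterozygous groups were identical at P0, and likewise at P3, so 6 distinct lists were used and the P0 and P3 lists carry no genotype here. They held 39559 to 67258 peaks, nearly all of 1 fixed width, without a height, score or p-value. Read depth is unknown, no value belongs to a single sample, and no comparison below could be tested against the spread between replicates. Intervals are 95% Wilson intervals over genes or peaks. They cover counting error only, and neighbouring genes are not independent. Of 10 germ-cell markers, 7 had a peak at the gene start (or at either outer end, where the strand is not given) in all 6 lists, among them *Ddx4*, *Dazl* and *Kit*, whereas *Nanos2* and *Tdrd1* had none. Of 17492 protein-coding genes outside the clusters with a given strand, searched at the start alone, 51% had such a peak in all 6 lists. Sertoli cell markers had 1 to 2 of 6, with *Cldn11* in all 6 lists and *Wt1* in all but P3. *Sox9*, *Amh*, *Gata4* and *Dhh* were at 0. Leydig cell markers had 1 of 5 in every list, *Cyp11a1*, with *Star*, *Cyp17a1*, *Hsd3b1* and *Insl3* at 0. Endothelial and blood markers had 0 to 1 of 4, and neuronal markers 4 of 5 in every list. The part of other cells in the results was not tested.

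The alpha genes span 259 kb, the beta genes 256 kb and the gamma genes 180 kb. A gap of 76.1 kb separates alpha from beta and a gap of 140 kb separates beta from gamma. The 14 alpha genes start at different positions but end at only 4, and the 21 gamma genes also end at 4, whereas the 22 beta genes have 22 different ends. This places the shared exons at the upper end of the alpha and gamma arrays and shows their direction of transcription. The same direction was assumed for the beta genes, whose ends do not show it, and the lower outer end was used as the start of every member.

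Peaks were assigned to the clusters when they overlapped the bounds of a member gene extended by 2 kb on each side. The E13.5 heterozygous list held 35 such peaks and the E13.5 knockout list 30. The counts were 33 (heterozygous) and 35 (knockout) for E16.5, 56 for P0 and 25 for P3. Per Mb of these regions this gave 59.0 and 50.6 peaks in the E13.5 lists, 55.6 and 59.0 in the E16.5 lists, 94.4 for P0 and 42.1 for P3. The bounds of all protein-coding genes, extended in the same way, held 20.6 to 24.9 peaks per Mb in the 6 lists. The clusters held more peaks per Mb than genes in general in every list, and P0, which was also the longest list, had the highest density. Gene starts were also closer together in the clusters, with 57 in 593 kb against 21900 in 1099803 kb for all protein-coding genes. The part of this spacing in the peak density was not tested. Chromosome 18 as a whole went from 13.9 peaks per Mb in E16.5 heterozygous cells (1218 peaks) to 23.2 per Mb at P0 (2034 peaks), while the clusters went from 33 to 56 peaks. As a share of its list, the clusters held 0.0865% of E13.5 heterozygous peaks (interval 0.0622 to 0.120) and 0.0833% of P0 peaks (interval 0.0641 to 0.108). The share was 0.0559% at P3 (interval 0.0378 to 0.0824). These intervals overlap.

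The subclusters differed in how they followed the stages. The beta regions held 6 and 4 peaks (heterozygous and knockout) at E13.5, then 6 and 9, followed by 21 in the P0 and 6 in the P3 list. Alpha regions held 14 and 11, then 13 and 14, then 19 and 12 peaks. Gamma regions held 15 and 15, then 14 and 12, then 16 and finally 7 peaks. Of the 3 subclusters beta had the most peaks at P0 and gamma the fewest of its own peaks at P3.

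**Figure D1:**
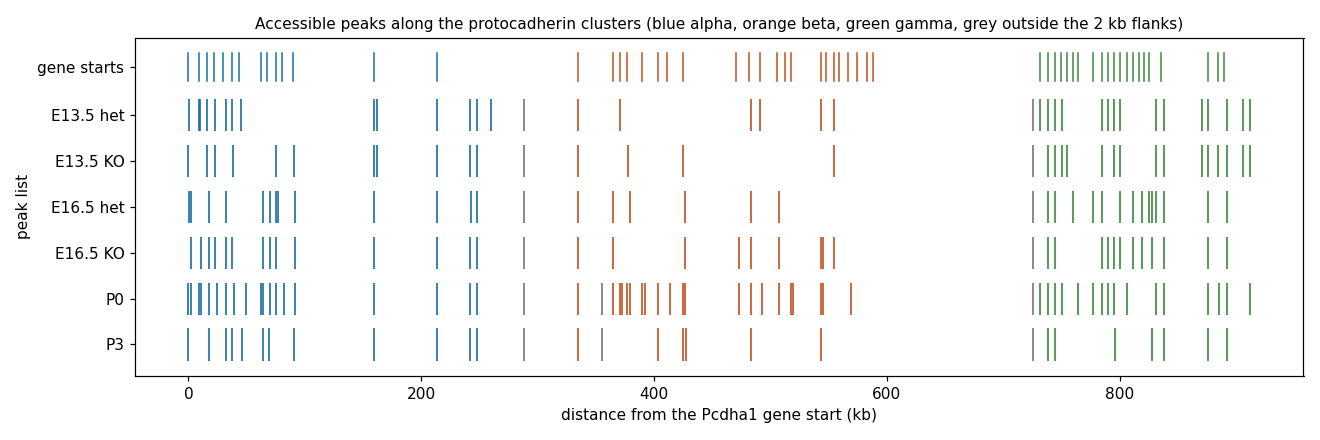
Peaks along the 3 protocadherin subclusters. The x axis gives the distance from the *Pcdha1* gene start in kb, each row is 1 peak list and each tick 1 peak; the top row marks the 57 gene starts. The beta regions hold 21 peaks at P0 and 4 to 9 in the other lists.

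Relative to the gene starts most cluster peaks fell at 2 places, the start itself and a second place about 2 kb downstream. A gene was counted as having a gene-start peak when a peak overlapped the 1000 bp on either side of its start. It was counted as having a downstream peak when the centre of a peak lay 1500 to 2500 bp past the start. The second window was chosen after the positions had been seen. The median centre of the 114 gene-start peaks, counted over genes and lists, was 38 bp past the start, and 95 of them (83.3%) were centred within 250 bp of it. The 62 downstream peaks had a median centre of 2074 bp and ranged from 1799 to 2353 bp.

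This second place was shared by genes whose starts are several kb apart. Downstream peaks of alpha genes were centred at a median of 2037 bp (33 peaks, 1823 to 2211 bp). Those of beta genes had a median of 2132 bp (24 peaks, 1799 to 2353 bp), and 23 of the 24 lay wholly inside the bounds of the beta gene. The 5 gamma peaks were centred between 2279 and 2321 bp. Start peaks were tightest in the beta genes, where all 28 were centred within 250 bp of the start. In the alpha genes 20 of 35 were, and the rest reached as far as 1089 bp.

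**Figure D2:**
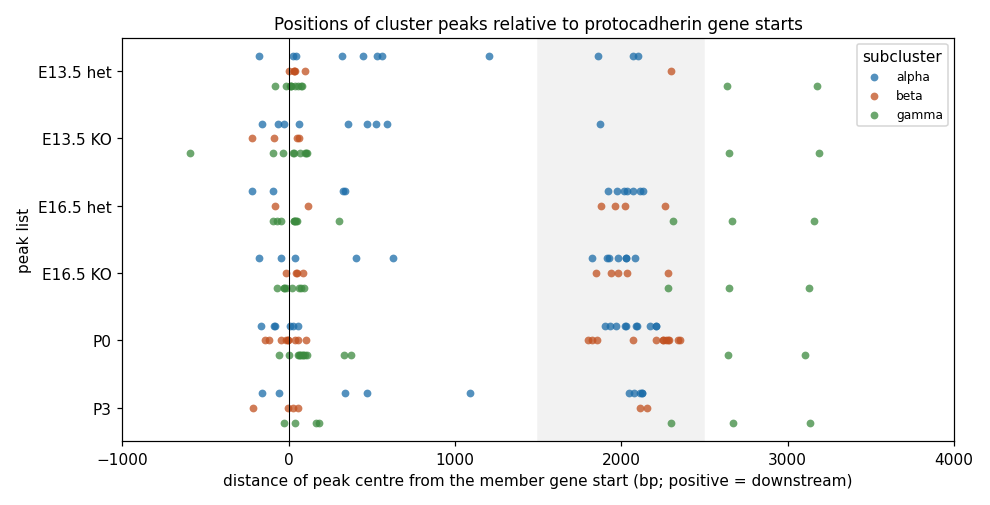
Position of cluster peaks relative to the member gene start. Peaks far from any start are not drawn. The *Pcdhga10* downstream peaks of the E16.5 lists (2321 and 2306 bp) are also left out, because the *Pcdhgb7* start is nearer to them. The x axis is the distance of the peak centre in bp, positive in the direction of transcription. Rows are peak lists, colours are subclusters and the grey band marks 1500 to 2500 bp. The band holds 4 and 1 peaks in the E13.5 lists and 8 to 22 in the later lists, most of them at alpha and beta genes.

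Few genes had a downstream peak at E13.5, and more had one in each later list. At E13.5, 4 of 57 genes had one in heterozygous cells (7.02%, interval 2.76 to 16.7) and 1 of 57 in knockout cells (1.75%, interval 0.310 to 9.29). At E16.5 the counts were 13 of 57 (22.8%, interval 13.8 to 35.2) and 14 of 57 (24.6%, interval 15.2 to 37.1). At P0 they reached 22 of 57 (38.6%, interval 27.1 to 51.6), and at P3 8 of 57 (14.0%, interval 7.29 to 25.3). Among 17492 other protein-coding genes whose strand is given, none of them on chromosome 18, the same window held a peak in 2.37% and 2.44% for the E13.5 lists, 2.77% and 2.81% for E16.5, 3.02% for P0 and 2.28% for P3. The interval of the members included the background in E13.5 knockout cells and lay above it in the other 5 lists, by the smallest margin in E13.5 heterozygous cells. Because the window was set on the members' own peak positions, an excess over other genes was partly built in.

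The share that downstream peaks took of all cluster peaks was also lower in both E13.5 lists than in the later 4. The E13.5 lists were also the shortest (40448 and 39559 peaks), and the part of list length in this share was not tested. Downstream peaks made up 11.4% of the cluster peaks of E13.5 heterozygous cells (interval 4.54 to 26) and 3.33% of those of E13.5 knockout cells (interval 0.591 to 16.7). They made up 39.4% (interval 24.7 to 56.3) and 40.0% (interval 25.6 to 56.4) at E16.5, 39.3% at P0 (interval 27.6 to 52.4) and 32.0% at P3 (interval 17.2 to 51.6). The E13.5 knockout interval lies below those of E16.5, P0 and P3, while the E13.5 heterozygous interval lies below that of P0 and overlaps those of E16.5 and P3. Without the alpha genes the shares were 4.76% and 0% at E13.5 and 23.1% to 33.3% later. Without the beta genes they were 10.3% and 3.85% at E13.5 and 28.6% to 34.6% later.

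The alpha genes carried the downstream peaks most completely. Of the 57 members 27 had one in at least 1 list and 0 in all 6, against 4.67% and 1.35% of other protein-coding genes. The 0 rests on the window edge of 2500 bp, since a *Pcdhga12* peak at 2653 bp was in all 6 lists. All 12 alpha genes outside the C-type were among the 27. *Pcdha3*, *Pcdha8* and *Pcdha9* held it in the later 4 lists and in neither E13.5 list. The *Pcdha9* position spans 36999677 to 37000240 on chromosome 18 (build mm10, as all positions here), about 2 kb past a start at which no list had a peak. *Pcdha5* held it in 5 lists, all but E13.5 knockout, and *Pcdha1* and *Pcdha12* in 3 (E16.5 of either genotype, and P0). *Pcdha4*, *Pcdha6* and *Pcdha11* showed it at P0 only, and *Pcdha10* in E16.5 heterozygous cells only. *Pcdha2* had it in E16.5 knockout cells and at P0. *Pcdha7* had it in E13.5 heterozygous cells and at P3. The C-type gene *Pcdhac1* went the other way, with a downstream peak (37091746 to 37092259) in both E13.5 lists and in no later list.

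In the beta subcluster 12 of 22 genes had a downstream peak in at least 1 list. *Pcdhb10* held it in 5 lists and *Pcdhb8* in 4 (both E16.5 lists, P0 and P3). *Pcdhb12* had it at E16.5 in both genotypes and at P0. *Pcdhb9* and *Pcdhb15* had it in E16.5 knockout cells and at P0, and *Pcdhb4* in E16.5 heterozygous cells and at P0. The other 6, *Pcdhb3*, *Pcdhb5*, *Pcdhb7*, *Pcdhb11*, *Pcdhb14* and *Pcdhb19*, had it at P0 only. In the gamma subcluster only *Pcdhga10* and *Pcdhga11* of 21 genes had a downstream peak, both in both E16.5 lists, neither at P0, and *Pcdhga11* again at P3. *Pcdhgb7*, which lies between them, had none.

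**Figure D3:**
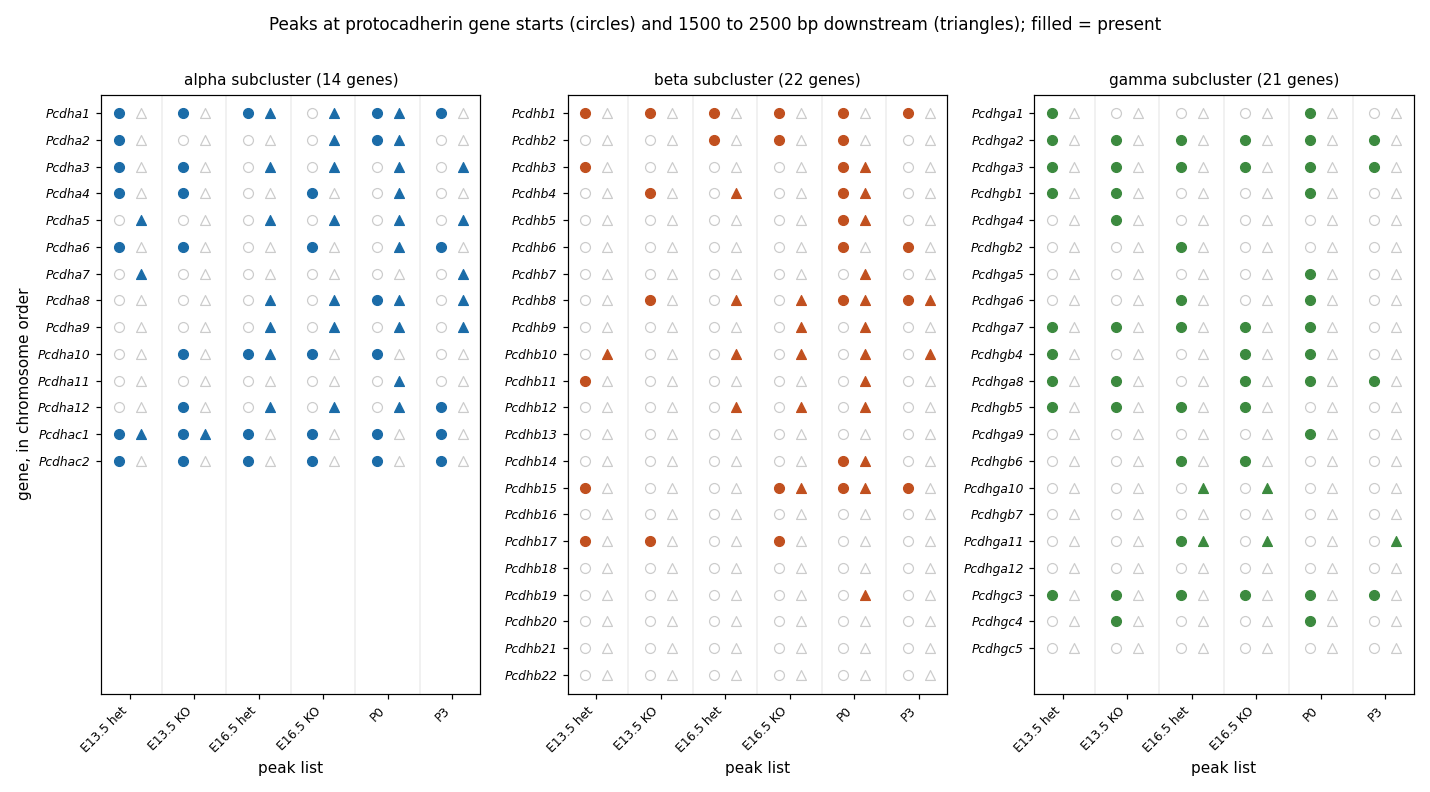
Peaks at each of the 57 genes in each list. Rows are genes in chromosome order, columns are peak lists, circles stand for gene-start peaks and triangles for downstream peaks, and filled symbols for presence. Filled triangles mark 7 alpha genes in each E16.5 list and 10 at P0, and 12 of 22 beta genes at P0 but 2 at P3, while gamma shows mainly circles.

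Gene starts of the members carried a peak less often than those of other genes. A gene-start peak was found at 21 of 57 genes in each E13.5 list (36.8%, interval 25.5 to 49.8). The counts were 15 (26.3%, interval 16.6 to 39.0) and 17 (29.8%, interval 19.5 to 42.7) at E16.5, 27 at P0 (47.4%, interval 35 to 60.1) and 13 at P3 (22.8%, interval 13.8 to 35.2). Other protein-coding genes had such a peak in 56.7% and 56.9% for E13.5, 57.5% and 58.3% for E16.5, 59.8% for P0 and 56.2% for P3. The members lay below this background in every list, and at P0 their interval reached it. Of the 57 genes, 6 had a start peak in all 6 lists, 32 in 1 to 5 lists and 19 in none. Of the other genes, 51% had one in all 6, 12.9% in 1 to 5 and 36% in none.

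The 6 constant start peaks included 3 of the 5 C-type genes. *Pcdhac1* (37089664 to 37090229), *Pcdhac2* (37143439 to 37144334) and *Pcdhgc3* (37806065 to 37806643) had one in every list. The other C-type genes did not follow them. *Pcdhgc4* had a start peak in E13.5 knockout cells (centred at -594 bp) and at P0 (375 bp) only, in places that do not overlap. *Pcdhgc5* had one in no list. The remaining constant starts were those of *Pcdhb1* (37264782 to 37265364), the first beta gene, and of *Pcdhga2* (37668703 to 37669357) and *Pcdhga3* (37674099 to 37674640), near the beginning of the gamma array.

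Among the other 12 alpha genes none had a start peak in all lists and 8 had one in some. *Pcdha1* had it in all but E16.5 knockout cells. *Pcdha3* had it in both E13.5 lists alone, *Pcdha4* in these and in E16.5 knockout cells, and *Pcdha6* in these 3 and at P3. *Pcdha10* showed it from E13.5 knockout cells through E16.5 to P0, and *Pcdha2* in E13.5 heterozygous cells and at P0. *Pcdha12* had it in E13.5 knockout cells (centred at 471 bp) and at P3 (1089 bp), in places that do not overlap. A window of 500 bp leaves out its P3 peak and gives 12 members at P3 instead of 13. *Pcdha8* had a start peak at P0 only. *Pcdha5*, *Pcdha7*, *Pcdha9* and *Pcdha11* had a downstream peak in some list but a start peak in none.

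A downstream peak in a later list was found in alpha genes outside the C-type with a start peak at E13.5 in either genotype (7 genes) and in those without one (5 genes). Over all members, 12 of the 27 genes with a start peak at E13.5 had a later downstream peak, and 0 of the 11 such gamma genes. The 2 places were not exclusive. At P0 both were occupied in 3 of the 12 alpha genes outside the C-type, in 6 of 22 beta genes and in none of the gamma genes. In E16.5 knockout cells 13 of 57 genes had the downstream peak alone, 16 the start peak alone and 1, *Pcdhb15*, both.

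Among the beta genes start peaks were found at 5 and 4 of 22 in the E13.5 lists, 2 and 4 in the E16.5 lists, 9 for P0 and 4 for P3. *Pcdhb2* held one in 3 lists (E16.5 of either genotype, and P0), *Pcdhb15* in 4 lists, and *Pcdhb17* in 3. *Pcdhb5* and *Pcdhb14* had one at P0 only, and *Pcdhb6* at P0 and P3. *Pcdhb3*, *Pcdhb4* and *Pcdhb8* had one in a single E13.5 genotype and again at P0, *Pcdhb8* also at P3, and *Pcdhb11* had one in E13.5 heterozygous cells alone. Along the array, the last 7 genes from *Pcdhb16* to *Pcdhb22* were nearly empty, with a start peak at *Pcdhb17* and a downstream peak at *Pcdhb19*. This stretch was singled out after its values were seen. Variable exons of neighbouring protocadherins resemble each other, and how reads that map to several places were treated is not given in the sources used here. The absence of a peak at these genes is therefore uncertain.

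Start peaks were found at 9 of 21 gamma genes in each of 3 lists (both E13.5 lists and E16.5 heterozygous cells), at 8 in E16.5 knockout cells and at 12 at P0. Similar counts did not mean the same genes: in heterozygous cells 5 gamma genes had a start peak at E13.5 and E16.5, 4 at E13.5 only and 4 at E16.5 only. At P3 there were 4, at *Pcdhga2*, *Pcdhga3*, *Pcdhga8* and *Pcdhgc3*. *Pcdhga7* had a start peak in all lists but P3, *Pcdhga8* in all but E16.5 heterozygous cells, and *Pcdhgb5* in both genotypes at E13.5 and E16.5 and not after birth. *Pcdhgb6* had one in both E16.5 lists only. *Pcdhga5* and *Pcdhga9* had one at P0 only. *Pcdhgb1* had one in both E13.5 lists and at P0, *Pcdhga1* in E13.5 heterozygous cells and at P0, and *Pcdhga4* in E13.5 knockout cells alone. *Pcdhgb2* and *Pcdhga11* had one in E16.5 heterozygous cells alone, *Pcdhga6* there and at P0, and *Pcdhgb4* in E13.5 heterozygous cells, E16.5 knockout cells and at P0. Among the 57 genes, 9 had neither kind of peak in any list: *Pcdhb13*, *Pcdhb16*, *Pcdhb18*, *Pcdhb20*, *Pcdhb21*, *Pcdhb22*, *Pcdhgb7*, *Pcdhga12* and *Pcdhgc5*. A peak 2653 bp past the *Pcdhga12* start (37767963 to 37768504), just outside the downstream window, was present in all 6 lists.

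**Figure D4:**
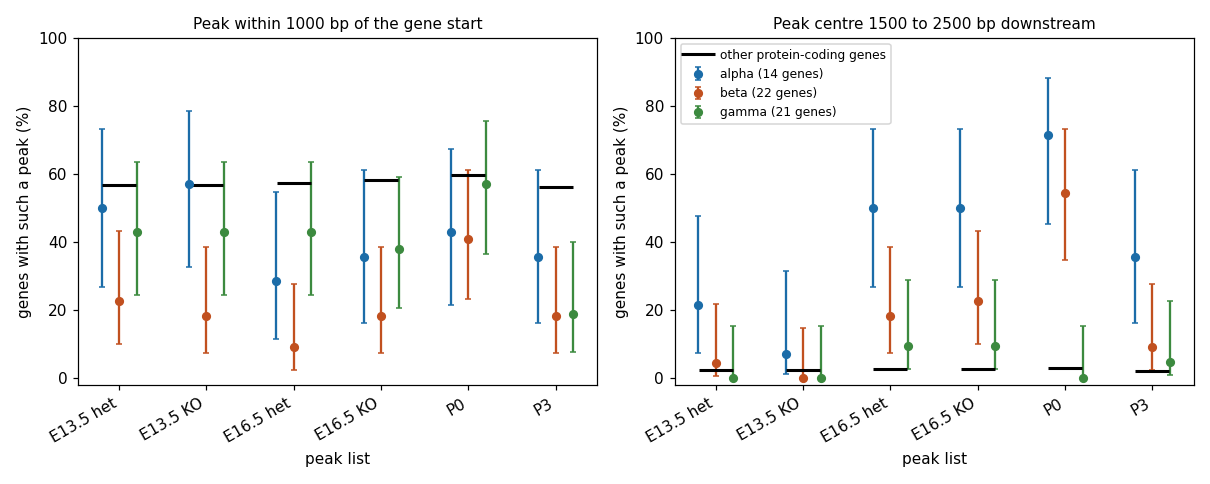
Percentage of genes with a gene-start peak (left) and with a downstream peak (right) in each list. Points are subclusters with 95% Wilson intervals over genes, and black bars are the other protein-coding genes. In the right panel alpha genes stand at 50% in each E16.5 list and 71.4% for P0, against 2.77% to 3.02% of other genes.

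From E13.5 to E16.5 in heterozygous cells, 12 members had a start peak at E13.5 only and 6 at E16.5 only (21.1% and 10.5% of 57, against 2.82% and 3.62% of other genes). Downstream peaks showed the reverse balance, with 2 at E13.5 only and 11 at E16.5 only (3.51% and 19.3%, against 0.635% and 1.04%). In knockout cells 8 start peaks were present at E13.5 only and 4 at E16.5 only, while 2.42% and 3.82% of other genes changed in these ways. For downstream peaks the knockout counts were 1 and 14, against 0.589% and 0.96%. Both genotypes thus went in the same direction, with fewer start peaks and more downstream peaks at E16.5. The 11 heterozygous genes were *Pcdha1*, *Pcdha3*, *Pcdha8*, *Pcdha9*, *Pcdha10*, *Pcdha12*, *Pcdhb4*, *Pcdhb8*, *Pcdhb12*, *Pcdhga10* and *Pcdhga11*.

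From E16.5 to P0, with the heterozygous list as the start, 16 members had a start peak at P0 only and 4 at E16.5 only (28.1% and 7.02%, against 4.11% and 1.75% of other genes). For downstream peaks the counts were 12 and 3 (21.1% and 5.26%, against 0.869% and 0.617%). Beta genes made up 7 of the 16 and 8 of the 12. From P0 to P3 the balance turned. At P0 only there were 16 start peaks and 16 downstream peaks (28.1% each, against 4.69% and 1.11%), and at P3 only 2 and 2 (3.51% each, against 1.06% and 0.36%). The 2 start peaks of P3 were those of *Pcdha6* and *Pcdha12*, the latter centred 1089 bp past the start. The 2 downstream peaks were those of *Pcdha7* and *Pcdhga11*. The P0 list holds 67258 peaks and the P3 list 44760, and the other genes also had more peaks at P0 only than at P3 only. The part of list length was not tested.

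Merging overlapping peaks of the 6 lists gave 78 positions in the clusters. Of these 10 were present in all lists and 26 in a single list, 16 of which were in the P0 list. Of 27 downstream positions, 23 were found at E16.5 or later only, 1 at E13.5 only and 3 at both times. Of 41 start positions, 13 were later only, 6 at E13.5 only and 22 at both. Recurrence between stages was compared with that of all peaks. E13.5 heterozygous cluster peaks were found at E16.5 in 45.7% of cases (interval 30.5 to 61.8), against 56.7% of all peaks, which is within the interval. P0 cluster peaks were found in the P3 list in 37.5% of cases (interval 26 to 50.6), against 55.7% of all P0 peaks. Their recurrence in E16.5 heterozygous cells was 46.4% (interval 34.0 to 59.3), against 62.3%. Both shares of all peaks lie above the interval of the clusters. P3 cluster peaks were found at P0 in 84.0% (interval 65.3 to 93.6), close to the 83.6% of all P3 peaks.

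The shared 3′ parts of the alpha and gamma arrays, past the last variable gene start, held peaks that hardly varied. In alpha, positions 37172246 to 37172924 and 37178251 to 37178826, both past *Pcdhac2*, were present in all 6 lists. In gamma, position 37822398 to 37822985, past the *Pcdhgc5* start, was present in all 6, and 37836127 to 37836697 in both E13.5 lists only. Between the alpha and beta arrays, and outside the assignment rule, 1 further position (37218013 to 37218577) lay 29.4 kb past the alpha end in all 6 lists. Enhancers of the alpha genes are known among and past the alpha constant exons. Whether these peaks are those elements was not tested. A position 6.01 kb before the gamma array (37655492 to 37656037) was also in all 6.

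To ask whether loss of *Morc1* altered the clusters, knockout and heterozygous lists were compared at E13.5 and E16.5. At E13.5 the genotypes shared 23 cluster peaks. A further 12 of 35 heterozygous peaks (34.3%, interval 20.8 to 50.8) and 7 of 30 knockout peaks (23.3%, interval 11.8 to 40.9) were private to 1 genotype. Over all peaks the private shares were 21.3% and 19.6%, within both intervals. At E16.5 they shared 26, with 7 of 33 heterozygous peaks (21.2%, interval 10.7 to 37.8) and 9 of 35 knockout peaks (25.7%, interval 14.2 to 42.1) private, against 18.6% and 23.5% of all peaks. For the clusters as a whole the share of all peaks lay within the interval in all 4 sets. By subcluster and place, some E13.5 heterozygous intervals lay above the 21.3% of all peaks: 4 of 6 beta peaks were private (66.7%, interval 30 to 90.3), 6 of 14 alpha peaks (42.9%, interval 21.4 to 67.4) and 3 of 4 downstream peaks (75%, interval 30.1 to 95.4). These were singled out among all subclusters and places of the 4 sets, and no other interval lay above its share of all peaks. The private downstream peaks are among the private alpha and beta peaks, so the 3 counts are not separate.

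Peaks at gene starts gave another picture, because start peaks of other genes are seldom private. At E13.5, 8 of 22 heterozygous peaks at member starts (36.4%, interval 19.7 to 57.0) and 7 of 21 knockout peaks (33.3%, interval 17.2 to 54.6) were private. At the starts of other protein-coding genes 3.02% and 3.37% were. A peak counted as private when it overlapped none of the other genotype, even where the gene had a start peak in both. This was so for *Pcdha1* (36930595 to 36931095 in heterozygous and 36930010 to 36930510 in knockout cells). The heterozygous count also takes in a further *Pcdha2* peak (36940157 to 36940657). Counting peaks within 500 bp as shared lowered the E13.5 private cluster peaks from 12 and 7 to 11 and 6. At E16.5 the shares were 4 of 15 (26.7%, interval 10.9 to 52.0) and 6 of 17 (35.3%, interval 17.3 to 58.7), against 3.75% and 5.12%. Protocadherin starts differed between the lists in both directions.

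**Figure D5:**
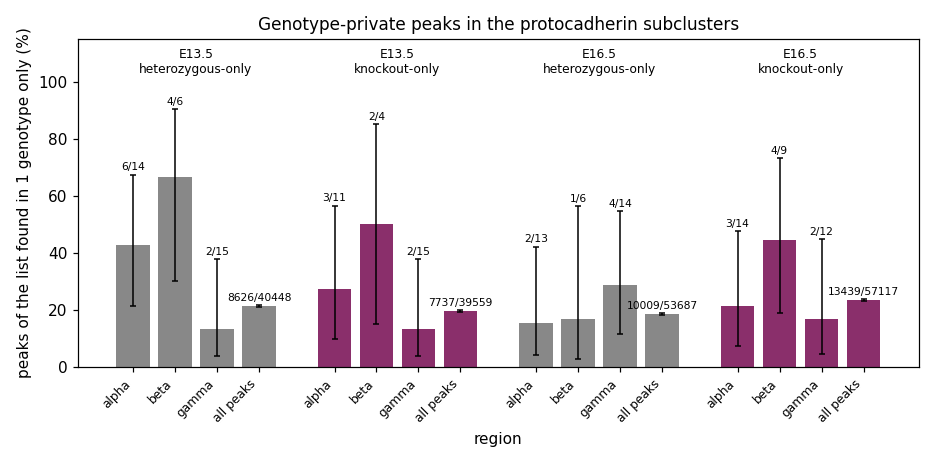
Percentage of peaks found in 1 genotype only, by subcluster and over all peaks, at E13.5 and E16.5. Bars are shares with 95% Wilson intervals, and the numbers above them are private peaks out of all peaks of that list and region. Beta has the highest bars in 3 of the 4 sets, with 4 to 9 peaks behind each of these.

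By gene, 6 members had a start peak in E13.5 knockout cells only and 6 in E13.5 heterozygous cells only (backgrounds 1.5% and 1.27%). The first were *Pcdha10*, *Pcdha12*, *Pcdhb4*, *Pcdhb8*, *Pcdhga4* and *Pcdhgc4*. The second were *Pcdha2*, *Pcdhb3*, *Pcdhb11*, *Pcdhb15*, *Pcdhga1* and *Pcdhgb4*. At E16.5 6 were in the knockout list only (*Pcdha4*, *Pcdha6*, *Pcdhb15*, *Pcdhb17*, *Pcdhgb4* and *Pcdhga8*) and 4 in the heterozygous list only (*Pcdha1*, *Pcdhgb2*, *Pcdhga6* and *Pcdhga11*), with backgrounds of 2.39% and 1.54%. No gene was knockout-only at both stages and none heterozygous-only at both. *Pcdhb15* and *Pcdhgb4* were heterozygous-only at E13.5 and knockout-only at E16.5.

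The downstream peaks were mostly shared between the genotypes at E16.5, in 11 genes. There were 3 further genes in the knockout list (*Pcdha2*, *Pcdhb9* and *Pcdhb15*, background 0.577%) and 2 in the heterozygous list (*Pcdha10* and *Pcdhb4*, background 0.543%). At E13.5, *Pcdha5*, *Pcdha7* and *Pcdhb10* had a downstream peak in heterozygous cells only (background 0.36%) and no gene in knockout cells only (background 0.429%).

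Other gene families were set beside the members to see where the clusters differ. Of the 12 protocadherin genes outside the clusters, 9 have a known strand, and 6 of these 9 had a start peak in each list. At the other 3 genes both ends were searched, and *Pcdh1* had a peak in both E13.5 lists and *Pcdh11x* in 3 lists (E16.5 of either genotype, and P0). *Pcdh8*, *Pcdh17*, *Pcdh18*, *Pcdh19* and *Pcdh20* had it in all 6 lists. Of 39 Hox genes, which are also clustered, 22 have a known strand. Of these, 7 and 6 had a start peak in the E13.5 lists, 9 and 11 in the E16.5 lists, 6 for P0 and 4 for P3, and 0 to 1 had a downstream peak. Olfactory receptor genes, another large tandem family, had start peaks at 7 and 4 of 944 in the E13.5 lists, 46 and 51 in the E16.5 lists, 78 for P0 and 36 for P3. Their downstream peaks followed the same order of stages with 0.530% and 0.847% in the E13.5 lists, 2.01% and 1.80% in the E16.5 lists, 2.75% for P0 and 1.38% for P3. Of the 9 other protocadherins with a known strand, 2 had a downstream peak in 4 lists (E13.5 knockout, E16.5 of either genotype, and P0) and 1 in the other lists.

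Genes beside the clusters were constant, but both of their ends were searched, against 1 end of the members. Of 18 protein-coding neighbours within 200 kb, 3 are read-through models that run from within the alpha array to the end of the gamma array. Of the other 15, 13 carried a peak near at least 1 annotated end in all 6 lists, among them the germ-cell gene *Dnd1* and *Zmat2* before the alpha array and *Diaph1* and *Hdac3* after the gamma array. *Slc25a2* and *Taf7*, which lie between the beta and gamma arrays, had none in any list. Of other protein-coding genes with a given strand, 51% had a peak in all 6 lists at the start alone. Of 21 genes for chromatin regulators, such as CTCF, cohesin subunits and DNA methyltransferases, 14 had a peak at the start in all 6 lists. Among them were *Ctcf*, *Smchd1*, *Setdb1* and *Dnmt3b*. Where the strand is not given, a peak at either end counted, so these 14 are not measured like the 51% of other genes. *Rad21*, *Wapl*, *Dnmt3a* and *Nsd1* had none at the outer end of the annotated gene, which need not be the start in use.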

How the data were processed

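ATAC-seq peak lists of 16 samples in 8 groups were used, grouped by their titles. The authors deposited 1 list per group with chromosome, start and end of each peak and no other value. These deposited positions, in bp, are the only values used. Build mm10 and bcl2fastq 2.20, cutadapt 1.18, Bowtie2 2.3.4.1, deepTools 3.5.0 and HOMER 4.10 are named, per the submitters' processing notes, without a role. Threshold, duplicate handling and pooling of the 2 samples are not given in the sources used here. Depth is unknown.

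Positions were written 1-based and compared with a RefSeq gene table of GRCm38. Strand came from a RefSeq promoter table, which gave it for 17492 other protein-coding genes and for none on chromosome 18, so the background leaves out the members' chromosome, and a gene's start is its outer end on that strand (for members, the lower end). For other genes without a given strand both ends were searched. Overlap means at least 1 bp. The members, lists and comparisons were chosen with earlier results of these data known. Every member is accounted for and named by the lists in which it has a peak. The downstream window was set after the peak positions were seen. The search was tested on simulated data (100 of 100 start and 100 of 100 downstream peaks found). No test was run. Alternatives were other flanks, windows and overlap rules. Python 3.11.15, pandas 2.3.3 and scipy 1.17.1 were used.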

Additional observations from a re-analysis of the deposited data

Results flagged for a closer look

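The knockout and heterozygous lists differed in opposite directions at the 2 stages for 2 counts. Cluster peaks in knockout minus heterozygous cells came to -5 at E13.5 (30 against 35) and 2 at E16.5 (35 against 33). Genes with a downstream peak came to -3 at E13.5 (1 against 4) and 1 at E16.5 (14 against 13). These opposite directions were not tested, as only 1 list stands for each combination. The knockout list was also the shorter list at E13.5 (39559 against 40448 peaks) and the longer at E16.5 (57117 against 53687 peaks). The part of list length in these differences was not tested.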

How the results depend on the processing

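No paired analysis was possible because the lists were deposited by group, so that replicates have no values of their own. Leaving out replicates, a replicate block and a stricter peak threshold were not run for the same reason and because the lists carry no score. A count was taken as moved when it changed by more than 1.5 times, a share when it left its interval. Of 156 recomputed values 150 stayed and 6 moved. Of the 114 listed at the outset, 4 moved. Counting either outer end raised the genes with a gene-start peak at E13.5 to 34 (heterozygous) and 33 (knockout). A peak in both E13.5 lists and at P0 (37842257 to 37842845) lies within 1000 bp of the ends of all 21 gamma genes. Under this rule it counts for each of them. A window of 2000 bp raised the genes with a gene-start peak at E16.5 to 23 and 28, since it takes in downstream peaks. Of the 42 added after seeing the data, 2 moved, both in the E13.5 knockout list. A wider downstream window gave 2 genes, and leaving out the alpha genes gave a downstream share of 0%.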

Other observations

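The pseudogene *Pcdhgb8*, which lies in the gamma array between *Pcdhga11* and *Pcdhga12* and was not counted as a member, had a peak within 1000 bp of its start in 4 of 6 lists (both E13.5 lists, E16.5 heterozygous cells and P0). A position inside the beta array but away from any gene's flank (37285417 to 37285937), between *Pcdhb1* and *Pcdhb2*, was present at P0 and P3 and in no fetal list.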
